A study of Sus scrofa with 6 samples.

Results

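Coactivator-associated arginine methyltransferase 1 (CARM1) acts together with other proteins at gene promoters and on RNA, and the genes of 8 of these partners were examined here in pig embryos: *NCOA1*, *NCOA2*, *NCOA3*, *EP300*, *CREBBP*, *MED12*, *ELAVL1* and *TDRD3*. They were taken by gene name from a table of 24358 genes, because each encodes a known partner or substrate of CARM1, and each name had 1 row. RNA was measured in 6 libraries, each made from 1 whole embryo at day 5. The 3 *CARM1* KD embryos came from MII oocytes that received about 10 pl of *CARM1* siRNA (50 μM, directed to 3 sites of the coding region), and the 3 control embryos were not injected. An embryo injected with a negative control siRNA was not part of this comparison, so that injection and knockdown cannot be told apart. The sources used here do not state whether these embryos were fertilized or parthenogenetic, and no genetic background is given. The labels call the embryos blastocysts. Values are FPKM (fragments scaled to transcript length and library size) unless stated otherwise. In RNA from whole embryos, fewer cells of a type and less RNA per cell cannot be told apart.

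CARM1 dimethylates arginines of histone H3 and of many other proteins. In human and mouse cells, a nuclear receptor that has bound its hormone recruits a p160 coactivator, and the p160 protein in turn brings CARM1 and the acetyltransferases p300 and CBP to the promoter, where acetylation and arginine methylation accompany transcription. CARM1 also methylates several of these partners themselves, among them NCOA3, p300, CBP, MED12 and ELAVL1, while TDRD3 reads methylated arginine through its Tudor domain. In the mouse embryo, CARM1 activity is linked to cells that contribute to the inner cell mass.

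The targeted gene was low in every injected embryo. *CARM1* was present at 0.130, 0.150 and 0.274 FPKM in *CARM1* KD 1, 2 and 3, against 1.96, 4.54 and 1.26 FPKM in control 1, 2 and 3. The groups did not overlap, and injected embryos retained on average 7.14% of the control level. The log2 fold change was -3.98 (SE 1.02) with an unadjusted p = 0.00516 and an adjusted p = 0.99989 in edgeR's quasi-likelihood test, in which no gene passed an adjusted p of 0.05. Within DESeq2, the other count test that was run, the value was -4.18 with an adjusted p = 0.00474.

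The embryos differed in composition, which touches each result on single genes. Libraries held 36324385 to 40080850 counts in *CARM1* KD embryos and 26341924 to 41727594 counts in control embryos. A list of 16 oocyte transcripts, such as *BMP15* and *WEE2*, summed to 361, 37.2 and 2242 FPKM in *CARM1* KD 1, 2 and 3, against 861, 4731 and 207 FPKM in control 1, 2 and 3. *CARM1* KD 3 and control 2 thus had the highest sums and *CARM1* KD 2 the lowest. In *CARM1* KD 3 and control 2, the epithelial keratins *KRT8* and *KRT18* were at or near 0. *KRT8* was at 45.7, 141 and 0 FPKM in *CARM1* KD embryos, against 7.54, 0.0484 and 30.6 FPKM in control embryos. The trophectoderm list of 13 genes summed to 97.0 to 680 FPKM in *CARM1* KD embryos and to 22.3 to 473 FPKM in control embryos, and *CDX2*, its defining factor, was at or below 0.445 FPKM in all 6 embryos. A list of 11 inner cell mass and pluripotency genes summed to 162, 259 and 248 FPKM in *CARM1* KD 1, 2 and 3. In control 1, 2 and 3 it summed to 228, 49.3 and 295 FPKM, so that only control 2 was low. Of 11 cumulus and granulosa genes, no more than 4 had a count in any embryo, and *FSHR* and *INHA* had none. Of 4 Y-linked genes, 3 had counts in *CARM1* KD 1 and 2 in *CARM1* KD 2, and none had counts in the other embryos. Control 2 also had the largest share of mitochondrial counts, at 46.0%, against 14.5% to 23.9% in *CARM1* KD embryos and 16.8% and 18.3% in the other control embryos. In control 2, 11173 genes had a count, against 13300 to 14512 in *CARM1* KD embryos and 13101 and 14822 in the other control embryos. The part of these differences in the results below was not tested.

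None of the 8 partner genes was called different between *CARM1* KD and control embryos, which does not show that their levels were equal. An adjusted p under 0.05 in edgeR was reached by 0 of the 8, against 0% of the 10639 genes tested. At an unadjusted p under 0.05, the count was 0 of 8 members, against 73 of 10639 genes (0.686%), of which 0.338% were higher and 0.348% lower in *CARM1* KD embryos. With no difference at all, a calibrated test gives a share near 0.05, so this fit was cautious. The 0 of 8 therefore says little about the members, and *CARM1* itself missed the adjusted threshold in edgeR. DESeq2 called 12 genes and limma 0, with no member among them. In 0 of the 8 members were all *CARM1* KD embryos above or all below the control embryos, against 4.89% of all tested genes. All 8 members passed the filter on low values. The fitted difference was positive for 5 of the 8 (62.5%), against 55.3% of all tested genes, and its median was 0.51 on the log2 scale over the members, against 0.10 over all tested genes. The biological coefficient of variation of the fit was 1.12, and the 95% intervals of all 8 members included 0.

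With *CARM1* KD 3 and control 2, the embryos rich in oocyte transcripts, both left out, 0 of 8 members passed either threshold in edgeR. Of all genes tested in that fit, 0 passed the adjusted threshold and 175 the unadjusted one. The 0 of 8 therefore says little about the members here too. The log2 fold changes of *CARM1* KD 1 and 2 against control 1 and 3 were then 1.46 for *NCOA2*, 1.43 for *TDRD3*, 0.71 for *EP300* and 0.44 for *CREBBP*. They were 0.21 for *ELAVL1*, -0.27 for *NCOA1*, -0.27 for *MED12* and -0.76 for *NCOA3*.

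**Figure D1:**
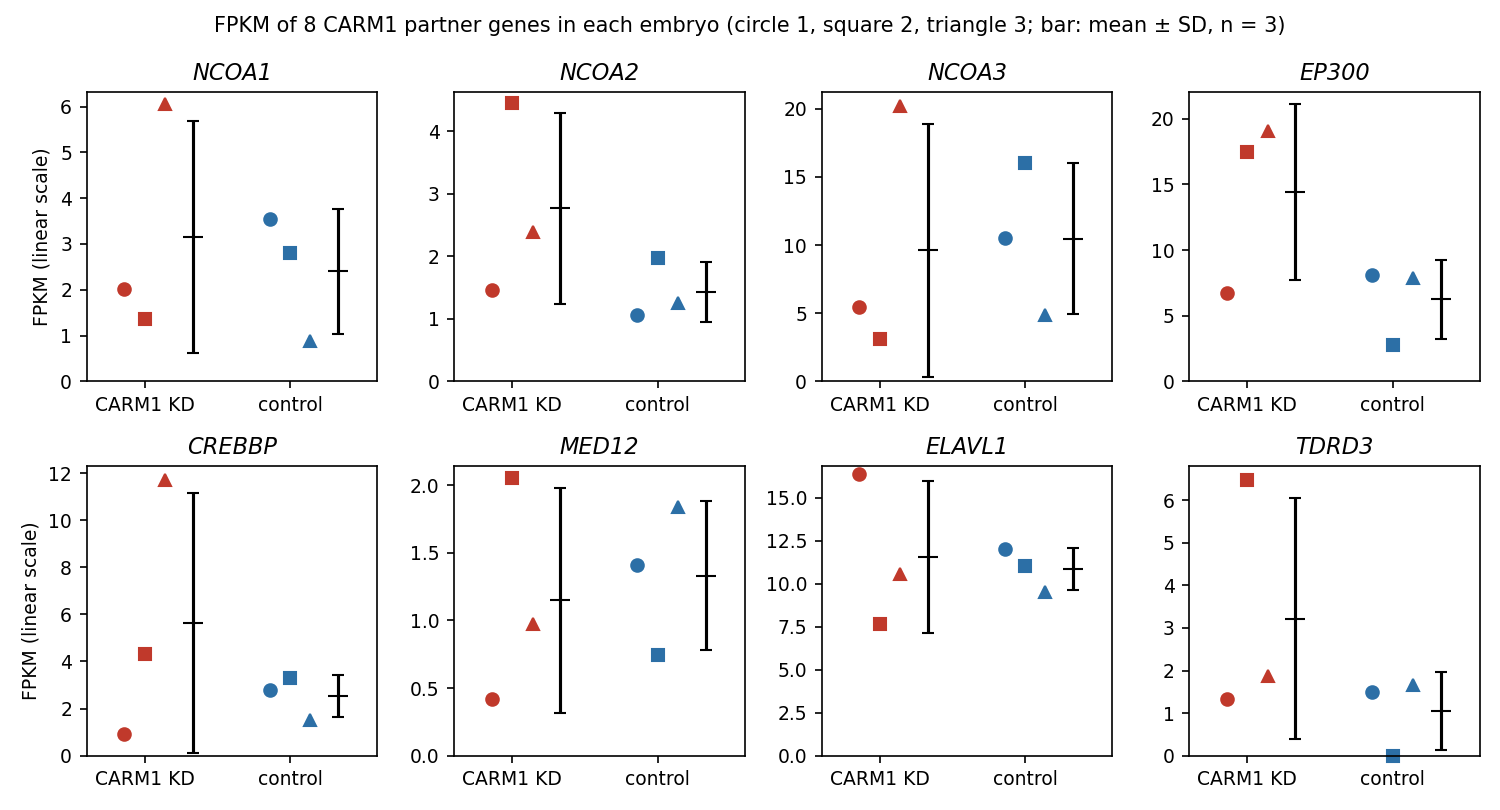
FPKM (linear axis from 0) of each member in each embryo, with *CARM1* KD left of control, symbols for embryo 1 (circle), 2 (square) and 3 (triangle), and bars for mean ± SD of 3 embryos. The groups overlap in all 8 panels, and *CARM1* KD 3 holds the highest *CARM1* KD value of *NCOA1*, *NCOA3*, *EP300* and *CREBBP*.

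The p160 coactivators bind nuclear receptors through short leucine-rich motifs and bring in CARM1 through their C-terminal activation domain. *NCOA1* (SRC-1; ENSSSCG00000008581, chromosome 3, 113996776 to 114191966, Sscrofa11.1) was at 2.02, 1.36 and 6.05 FPKM in *CARM1* KD 1, 2 and 3, against 3.54, 2.79 and 0.887 FPKM in control 1, 2 and 3. The highest value lay in *CARM1* KD 3 and the lowest in control 3, and the groups overlapped in part. The fitted log2 fold change was 0.15 (SE 0.83, 95% interval -1.78 to 2.07; edgeR, adjusted p = 0.99989). Leaving out *CARM1* KD 3 turned it to -0.60, with no test passed in either case.

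For *NCOA2* (TIF2, also GRIP1, the p160 protein with which CARM1 was first isolated in the mouse; ENSSSCG00000006194, chromosome 4, 64953467 to 65245693), the values were 1.46, 4.45 and 2.39 FPKM in *CARM1* KD 1, 2 and 3, against 1.06, 1.98 and 1.25 FPKM in control 1, 2 and 3. *CARM1* KD 2 and 3 lay above every control embryo, whereas *CARM1* KD 1 lay within the control range. Means were 2.77 ± 1.53 FPKM in *CARM1* KD embryos and 1.43 ± 0.482 FPKM in control embryos (SD, n = 3 each). The log2 fold change of 0.88 (SE 0.81, interval -1.01 to 2.76; edgeR, adjusted p = 0.99989) was about the size of its standard error, and was 0.12 without *CARM1* KD 2 and 1.46 for *CARM1* KD 1 and 2 against control 1 and 3.

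*NCOA3* (SRC-3, also AIB1), a p160 protein whose methylation by CARM1 is known from human cells to affect its stability and its binding to p300, was the most abundant of the p160 genes in 5 of 6 embryos (ENSSSCG00000007458, chromosome 17, 49528152 to 49663206). It was measured at 5.47, 3.12 and 20.2 FPKM in *CARM1* KD 1, 2 and 3, against 10.5, 16.0 and 4.89 FPKM in control 1, 2 and 3. High values were thus found in both groups, in *CARM1* KD 3 and in control 2. For *NCOA3* the log2 fold change was -0.43 (SE 0.80, interval -2.30 to 1.44; edgeR, adjusted p = 0.99989). It was -1.45 without *CARM1* KD 3 and 0.10 without control 2, so that single embryos decided its direction.

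The 3 p160 genes together gave 8.96, 8.93 and 28.7 FPKM in *CARM1* KD 1, 2 and 3, against 15.1, 20.8 and 7.03 FPKM in control 1, 2 and 3. *NCOA3* made up 61.1%, 34.9% and 70.6% of this sum in the *CARM1* KD embryos, against 69.6%, 77.0% and 69.6% in the control embryos. *CARM1* KD 2 was the exception to the predominance of *NCOA3*, since *NCOA2* there held 49.8% of the sum. In the other 5 embryos, *NCOA2* held 8.33% and 16.3% in *CARM1* KD embryos and 7.03% to 17.8% in control embryos. The share of *NCOA1* was steadier, at 15.3% to 22.6% in *CARM1* KD embryos and 12.6% to 23.4% in control embryos. These shares are given as a description without a test.

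**Figure D2:**
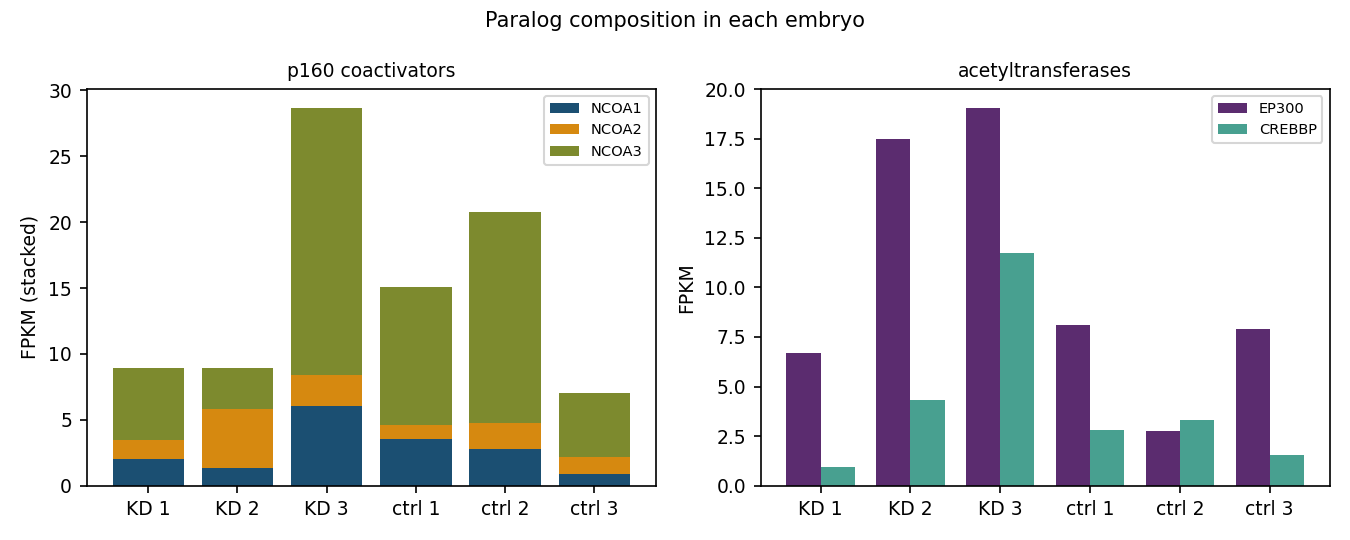
FPKM of the p160 genes (left panel, stacked) and of the acetyltransferase genes (right panel, side by side) in each of the 6 embryos, with *CARM1* KD before control and axes from 0. *NCOA3* is the largest p160 segment except in *CARM1* KD 2, and *EP300* exceeds *CREBBP* except in control 2.

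p300 and CBP are closely related acetyltransferases that acetylate histones at enhancers and promoters and serve as docking surfaces for many transcription factors. *EP300*, which encodes p300 (ENSSSCG00000000068, chromosome 5, 7312262 to 7373440), was at 6.71, 17.5 and 19.1 FPKM in *CARM1* KD 1, 2 and 3, against 8.09, 2.74 and 7.89 FPKM in control 1, 2 and 3. *CARM1* KD 2 and 3 were above all control embryos, but *CARM1* KD 1 lay below 2 of them. *EP300* averaged 14.4 ± 6.71 FPKM in *CARM1* KD embryos and 6.24 ± 3.03 FPKM in control embryos (SD, n = 3 each), a 2.31-fold ratio of means. Its log2 fold change of 1.09 (SE 0.73, interval -0.61 to 2.78) had an unadjusted p = 0.175 and an adjusted p = 0.99989 in edgeR, the smallest unadjusted p of the 8 members and rank 479 among 10639 genes. The difference was positive under 17 of 17 alternative settings, between 0.71 and 1.44, and passed the threshold under none of them (unadjusted p 0.109 to 0.424).

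*CREBBP*, which encodes CBP (ENSSSCG00000007951, chromosome 3, 38387613 to 38529150), was at 0.925, 4.31 and 11.7 FPKM in *CARM1* KD 1, 2 and 3, against 2.79, 3.29 and 1.52 FPKM in control 1, 2 and 3. Both the lowest and the highest of the 6 values were found in the *CARM1* KD group. The log2 fold change was 0.89 (SE 0.89, interval -1.19 to 2.97; edgeR, adjusted p = 0.99989), and it was -0.01 without *CARM1* KD 3.

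*EP300* exceeded *CREBBP* in 5 of 6 embryos, the exception being control 2. The ratio of *EP300* to *CREBBP* was 7.25, 4.05 and 1.63 in *CARM1* KD 1, 2 and 3, against 2.90, 0.835 and 5.19 in control 1, 2 and 3. It was thus lowest, within each group, in the embryo with the most oocyte transcripts. The sum of both genes was 7.63, 21.8 and 30.8 FPKM in *CARM1* KD embryos, against 10.9, 6.03 and 9.42 FPKM in control embryos, again with *CARM1* KD 1 inside the control range.

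*MED12* encodes a subunit of the kinase module of Mediator, the complex that links transcription factors to RNA polymerase II, and CARM1 methylates MED12 in human cells. The gene lies on the X chromosome (ENSSSCG00000012396, 57150204 to 57173400), and it was the least abundant member. Its values were 0.419, 2.05 and 0.972 FPKM in *CARM1* KD 1, 2 and 3, against 1.41, 0.746 and 1.84 FPKM in control 1, 2 and 3. *CARM1* KD 1 and 2, the embryos with Y-linked transcripts, held the lowest and the highest of the 6 values. Its log2 fold change was -0.25 (SE 0.97, interval -2.5 to 2.0; edgeR, adjusted p = 0.99989).

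*ELAVL1* encodes HuR, an RNA-binding protein that stabilizes messages with AU-rich elements. It was the most even of the members (ENSSSCG00000013592, chromosome 2, 71206876 to 71248906). Levels of *ELAVL1* were 16.4, 7.68 and 10.5 FPKM in *CARM1* KD 1, 2 and 3, against 12.0, 11.0 and 9.53 FPKM in control 1, 2 and 3. The control embryos were close to each other and lay inside the range of the *CARM1* KD embryos. Between its highest and its lowest embryo, *ELAVL1* differed 2.13-fold, and only 3.61% of the 7804 tested genes with reads in all 6 embryos had a smaller ratio. The log2 fold change was -0.02 (SE 0.62, interval -1.45 to 1.42; edgeR, adjusted p = 0.99989), so that differences of up to 1.45 in either direction were not resolved.

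TDRD3 binds methylated arginines on histones and on the tail of RNA polymerase II and acts with the topoisomerase TOP3B. *TDRD3* (ENSSSCG00000009449, chromosome 11, 33258041 to 33440123) was at 1.33, 6.47 and 1.86 FPKM in *CARM1* KD 1, 2 and 3, against 1.49, 0 and 1.66 FPKM in control 1, 2 and 3. The estimated counts behind these values were 158, 732 and 228 in *CARM1* KD embryos, against 188, 0 and 133 in control embryos. Apart from the high value of *CARM1* KD 2 and the absence of counts in control 2, the other 4 embryos lay close together. The log2 fold change of 1.64 was the largest of the members, but so was its standard error of 1.77 (interval -2.49 to 5.78; edgeR, adjusted p = 0.99989). It was 0.36 without *CARM1* KD 2, 1.03 without control 2 and 2.26 without control 3.

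**Figure D3:**
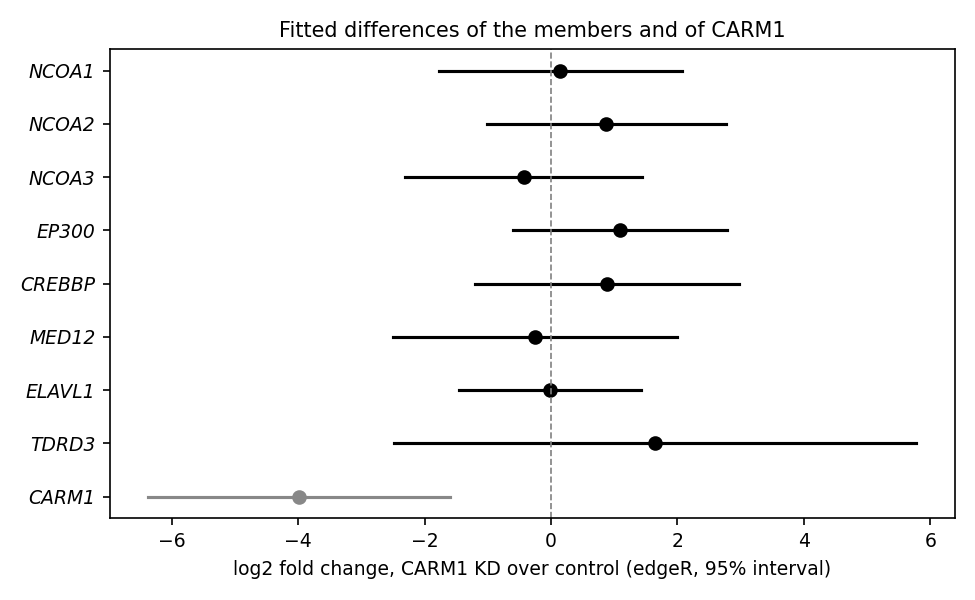
Log2 fold change (*CARM1* KD over control, edgeR) of each member and of *CARM1*, with the 95% interval as a line and 0 as a dashed line. The intervals of all 8 members include 0, and that of *CARM1*, centred on -3.98, does not.

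Ranked by the mean over the 6 embryos, *ELAVL1* (11.2 ± 2.93 FPKM), *EP300* (10.3 ± 6.46 FPKM) and *NCOA3* (10.04 ± 6.86 FPKM) were the most abundant members (SD over 6 embryos). *CREBBP* followed at 4.09 ± 3.93 FPKM and *NCOA1* at 2.78 ± 1.86 FPKM. *TDRD3*, *NCOA2* and *MED12* were lowest, at 2.13 ± 2.23, 2.10 ± 1.25 and 1.24 ± 0.638 FPKM. Neighbours in this order were not separated beyond their spread: the upper gene exceeded the next one in 3 to 5 of the 6 embryos, and in no pair in all 6.

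The members varied more among the *CARM1* KD embryos than among the control embryos, a comparison that was chosen after the values were seen. The SD of log2(FPKM + 1) was larger in *CARM1* KD embryos for 8 of 8 members, against 41.9% of all tested genes, and the SD of FPKM likewise for 8 of 8, against 47.9%. The widest contrasts were *CREBBP*, with an SD of 1.36 in *CARM1* KD embryos and 0.401 in control embryos on the log2 scale, and *ELAVL1*, with 0.503 in *CARM1* KD embryos and 0.154 in control embryos. For *EP300* the SDs were close, at 0.764 in *CARM1* KD embryos and 0.730 in control embryos. With *CARM1* KD 3 and control 2 set aside, *CARM1* KD 1 and 2 were further apart than control 1 and 3 in 6 of 8 members, against 52.5% of all tested genes, *NCOA1* and *NCOA3* being the exceptions. Leaving out 1 embryo at a time gave 6 or 7 of 8. The share over all tested genes was not computed for these settings, so these counts have nothing to be judged against. Each of them also compares groups of unequal size. The spread rests on 3 embryos a group and was not tested.

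No single embryo carried this spread. The highest *CARM1* KD value belonged to *CARM1* KD 3 for 4 members, to *CARM1* KD 2 for *NCOA2*, *MED12* and *TDRD3*, and to *CARM1* KD 1 for *ELAVL1*. The lowest was in *CARM1* KD 1 for 5 members and in *CARM1* KD 2 for 3. Summed over the 8 members, levels were 34.7, 46.9 and 72.8 FPKM in *CARM1* KD 1, 2 and 3, against 40.9, 38.6 and 29.5 FPKM in control 1, 2 and 3, with *CARM1* KD 1 again inside the control range. Over all 6 embryos the highest level exceeded the lowest 12.7-fold for *CREBBP* and 4.19- to 6.94-fold for *NCOA1*, *NCOA2*, *NCOA3*, *EP300* and *MED12*. These ratios were not unusual. Of the 7804 tested genes with reads in all 6 embryos, 63.7% had a smaller ratio than *CREBBP*. For the other genes just named, this share was 25.1% to 45.4%.

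*NCOA3* was highest in the embryos with the most oocyte transcripts, in both groups. Across the 6 embryos, Pearson's r between log2 values was 0.948 (exact permutation p = 0.00694, adjusted over 9 relations 0.0625) and Spearman's rho was 0.943 (exact permutation p = 0.0167, adjusted 0.15), so that neither passed the correction. Without *CARM1* KD 2 and control 2, the embryos farthest from the median in oocyte transcripts, r was 0.987 over 4 embryos, and with each embryo left out in turn it stayed between 0.933 and 0.976. Within *CARM1* KD embryos and within control embryos, the order of *NCOA3* was that of the oocyte transcripts. This pattern was not particular to *NCOA3*, since 1172 of the 10639 tested genes had an r above 0.9 with it. With a term for these transcripts in the edgeR fit, the log2 fold change of *NCOA3* between the groups was 0.05.

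For the other members, no relation to oocyte transcripts passed the correction either. For *NCOA1*, r was 0.727 (exact permutation p = 0.1, adjusted 0.3; 0.990 without *CARM1* KD 2 and control 2) and rho 0.771 (p = 0.103, adjusted 0.435; exact permutation test). The r of *TDRD3* was -0.852 (exact permutation p = 0.0472, adjusted 0.213) and its rho -0.6 (exact permutation p = 0.242, adjusted 0.435), but r was 0.516 without *CARM1* KD 2 and control 2, so that it rested on those embryos. For *EP300*, *CREBBP*, *MED12*, *ELAVL1*, *NCOA2* and *CARM1*, r lay between -0.604 and 0.601, with exact permutation p of 0.204 to 0.564. Without the same 2 embryos, r turned from -0.483 to 0.838 for *EP300* and was 0.910 for *CREBBP*. *EP300* reached 17.5 FPKM in *CARM1* KD 2, which had the fewest oocyte transcripts, and 19.1 FPKM in *CARM1* KD 3, which had many. Whether these correlations differ from each other was not tested.

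**Figure D4:**
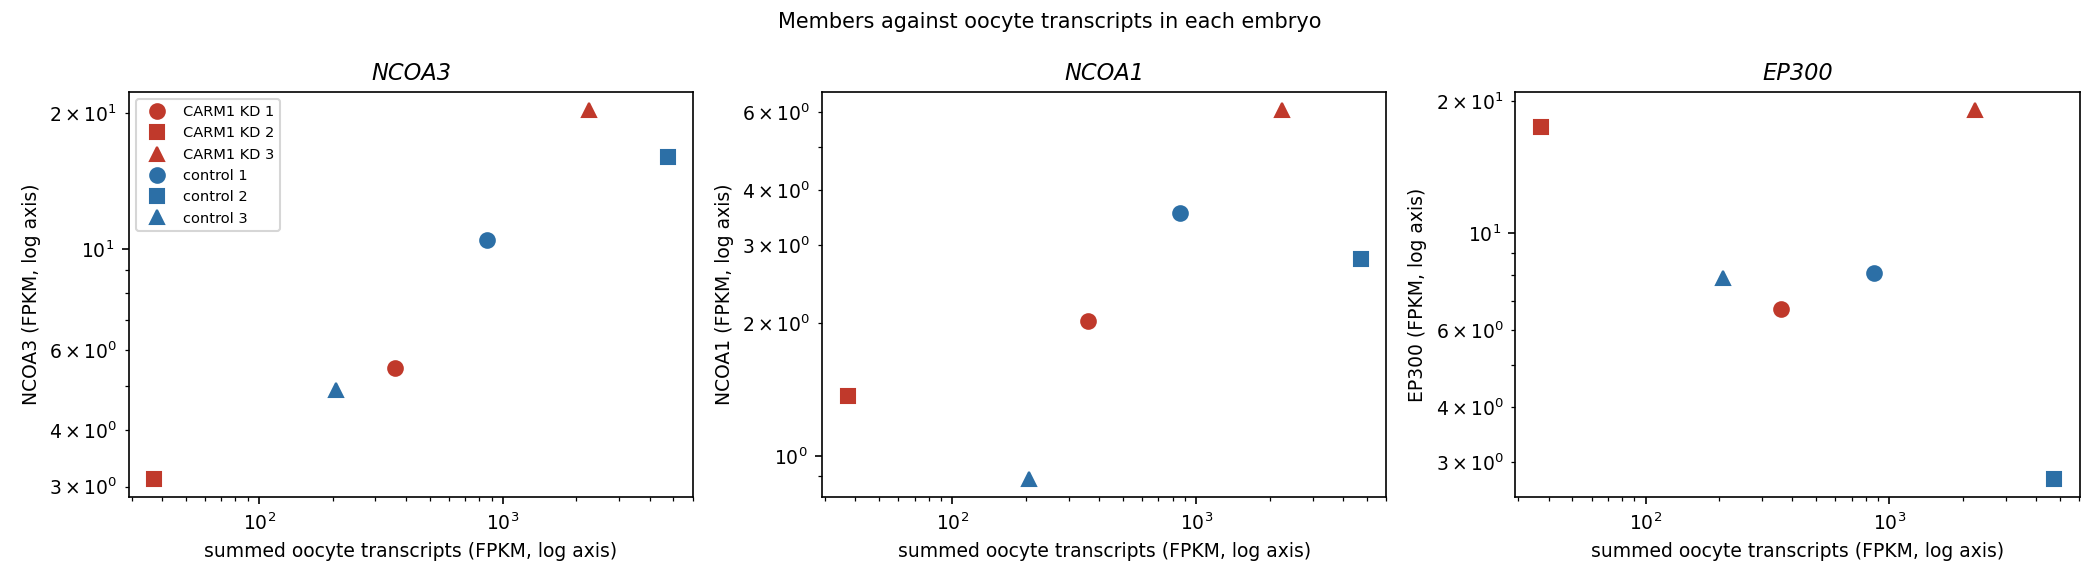
Level of *NCOA3*, *NCOA1* and *EP300* against the summed oocyte transcripts of the same embryo (FPKM, both axes logarithmic), with *CARM1* KD in red and control in blue. *NCOA3* climbs with the oocyte transcripts across embryos of both groups (r = 0.948), whereas *EP300* is high at both ends of the *CARM1* KD embryos.

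The genes whose pattern over the 6 embryos was most like that of a member were found by Pearson's r of log2(FPKM + 1) over all tested genes, as a description. For *NCOA3* these were *MPZL1* and *RNF146* (r = 0.998 each), and 1172 genes had an r above 0.9. *EP300* was matched by *EGLN2* (0.995) and *GTF3C4* (0.993), with 364 genes above 0.9, and *TDRD3* by *RNF166* (0.997) and *ZBTB48* (0.995), with 314. *NCOA1* was most like *WSB2* and *BRD7* (0.987 each), with 267 genes above 0.9, and *CREBBP* most like *NR1H2* (0.993) and *TINF2* (0.990), with 150. The patterns of *NCOA2*, *MED12* and *ELAVL1* were shared by fewer genes, with 27, 25 and 23 above 0.9. Their nearest genes were *CCDC61* (0.975) and *PLCL2* (0.965) for *NCOA2*, *C11orf54* (0.985) and *SMPD4* (0.967) for *MED12*, and *PLRG1* (0.949) and *EPCAM* (0.945) for *ELAVL1*. Among the members themselves, *NCOA1* with *NCOA3* (0.873) and *EP300* with *TDRD3* (0.851) were most alike, *MED12* and *ELAVL1* ran opposite to each other (-0.855), and *EP300* with *CREBBP* gave 0.574. With 6 embryos that differ in composition, high values of r are common.

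The tables also assign counts to annotated transcripts, 35 for the 8 members, of which 23 had a count in at least 1 embryo. For *EP300*, 92.3% of the counts of *CARM1* KD 1 (1857 of 2011) were given to ENSSSCT00000000074, of 7206 nt and 32 exons. In each of the other 5 embryos, 100% went to ENSSSCT00000026332, of 7227 nt and 31 exons. *CARM1* KD 1, the *CARM1* KD embryo with the lowest *EP300* level, was thus also the one whose counts were mostly assigned to another *EP300* transcript. The assignment is a model estimate between transcripts of nearly equal length in 1 embryo. Whether it relates to the level was not tested.

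*NCOA2* differed from embryo to embryo. ENSSSCT00000046801 received 0%, 100% and 100% of its counts in *CARM1* KD 1, 2 and 3, against 0%, 78.8% and 54.2% in control 1, 2 and 3. In *CARM1* KD 1 and in control 1, most counts went instead to ENSSSCT00000051622, with 52.3% and 86.8% of them. For *NCOA1*, ENSSSCT00000009390 held 64.7%, 7.56% and 47.9% of counts in *CARM1* KD embryos, against 77.9%, 72.5% and 100% in control embryos, each *CARM1* KD embryo lying below each control embryo. The transcript ENSSSCT00000009391 of *NCOA1* held 30.6%, 91.9% and 52.1% in *CARM1* KD embryos, against 20.1%, 0% and 0% in control embryos. The groups did not overlap for either of these transcripts. Among genes with counts in every embryo and more than 1 transcript read, the same held for 5 of 21 member transcripts, against 6.04% of 12592 transcripts of all tested genes. The 5 were these transcripts of *NCOA1*, 2 of *NCOA3* and 1 of *MED12*, and since the shares of a gene sum to the whole, transcripts of 1 gene are not separate observations. This comparison was made after the shares were seen, and it was not tested.

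Most other members used 1 main transcript. *CREBBP* (ENSSSCT00000008714) and *TDRD3* (ENSSSCT00000024660) had 100% of their counts on 1 transcript. *ELAVL1* had all counts on ENSSSCT00000014844 except in *CARM1* KD 2, where it held 92.3%. For *NCOA3*, ENSSSCT00000050895 held 89.3%, 94.0% and 91.3% in *CARM1* KD embryos, against 88.9%, 85.7% and 72.9% in control embryos, which did not overlap but lay close for control 1. For *MED12*, ENSSSCT00000065644 took 66.2%, 60.4% and 75.2% in *CARM1* KD embryos, against 40.7%, 81.6% and 59.7% in control embryos, with overlap between the groups. *MED12* was the exception to a single main transcript, since ENSSSCT00000013554 led in control 1 with 51.6%. The division of reads among transcripts is a model estimate, and the transcripts of a member share most of their sequence.

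**Figure D5:**
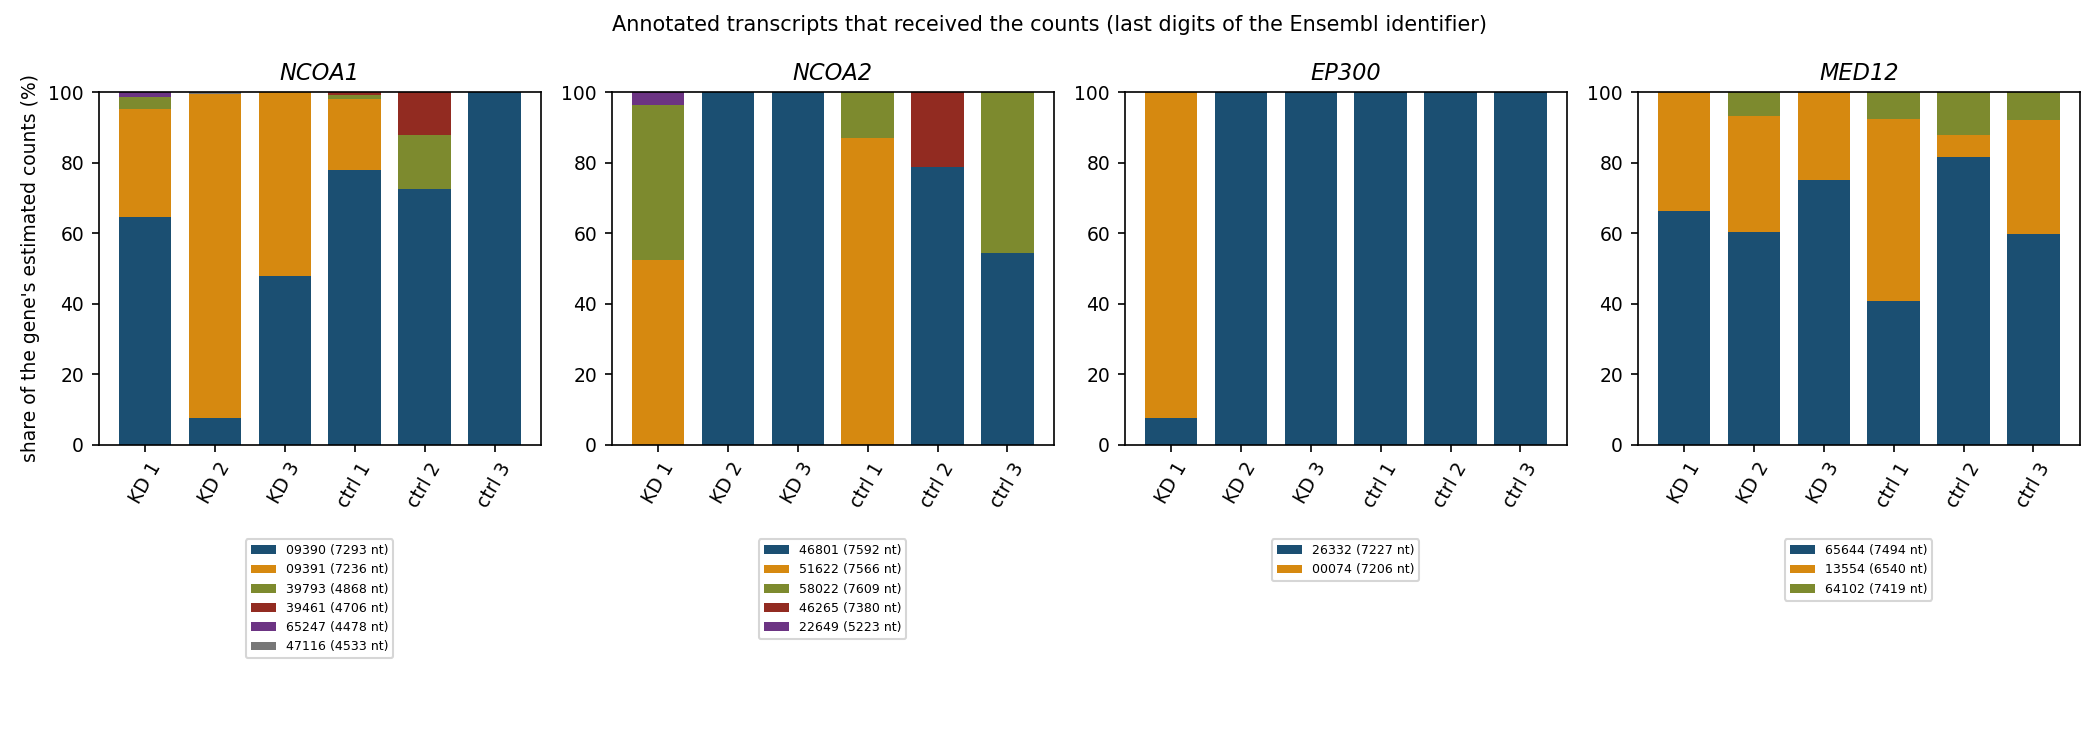
Share (%) of each gene's estimated counts given to each annotated transcript in each embryo, *CARM1* KD before control, with colours for transcripts named by the last digits of the identifier. *EP300* has a different main transcript in *CARM1* KD 1 alone, and the main transcript of *NCOA1* in *CARM1* KD 2 and 3 is not that of the other embryos.

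Genes that work with the members were examined as lists. Of 107 tested partner genes, 59 had a positive difference, against 55.3% of all tested genes. In edgeR, 0 passed an adjusted p of 0.05, against 0% of all tested genes. At an unadjusted p of 0.05, 0 passed, against 0.686%, so these counts say little about the partner genes. The positive counts of each list below stand beside the same 55.3%. Of 16 other genes of the p160 and CARM1 coactivator complex, 13 had a positive and 3 a negative difference, with a median log2 fold change of 0.48, against 0.10 over all tested genes. *PRMT1*, the main enzyme of asymmetric arginine dimethylation, averaged 34.0 ± 6.58 FPKM in *CARM1* KD embryos and 26.3 ± 6.02 FPKM in control embryos (SD, n = 3 each). *ACTL6A*, an actin-related subunit of chromatin remodelling complexes, averaged 44.2 FPKM in *CARM1* KD embryos and 34.9 FPKM in control embryos, and was read at 0 in control 2.

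In the Mediator kinase module, 4 of 5 tested genes were on the positive side, with a median of 0.34. Cyclin C (*CCNC*) averaged 14.9 FPKM in *CARM1* KD embryos and 11.5 FPKM in control embryos, and its kinase *CDK8* averaged 10.7 FPKM in *CARM1* KD embryos and 6.42 FPKM in control embryos. *CCNC* was at 1.88 FPKM in control 2, against 17.0 and 15.6 FPKM in control 1 and 3. *CDK8* was at 21.3 FPKM in *CARM1* KD 3, against 3.33 and 7.38 FPKM in *CARM1* KD 1 and 2. Core Mediator was divided evenly, with 12 of 23 genes positive and a median of 0.08. Its most abundant genes, *MED10* and *MED4*, averaged 165 and 99.1 FPKM in *CARM1* KD embryos, against 191 and 85.9 FPKM in control embryos.

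Readers of methylarginine and the TDRD3 complex had 3 of 8 genes on the positive side and a median of -0.39. *FXR1*, an RNA-binding relative of the fragile X protein, averaged 20.3 FPKM in *CARM1* KD embryos and 25.3 FPKM in control embryos. *PHF20* averaged 10.01 FPKM in *CARM1* KD embryos and 13.1 FPKM in control embryos. It was listed for its Tudor domain and is not taken here as an established reader of methylarginine. Among 10 genes of the ELAV family and of AU-rich element decay, 5 were positive (median 0.02). *HNRNPD* (AUF1), which competes with HuR for such elements, averaged 30.5 FPKM in *CARM1* KD embryos and 20.6 FPKM in control embryos. It was at 4.36 FPKM in control 2, against 31.3 and 26.1 FPKM in control 1 and 3. The decay factor *ZFP36* averaged 13.8 FPKM in *CARM1* KD embryos and 16.7 FPKM in control embryos.

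Other non-histone substrates of CARM1 had 7 of 12 genes on the positive side (median 0.32). The splicing genes *SNRPC* and *SF3B4* averaged 424 and 73.5 FPKM in *CARM1* KD embryos, against 304 and 73.3 FPKM in control embryos. *SNRPC* was at 17.7 FPKM in control 2, against 369 and 525 FPKM in control 1 and 3. Nuclear receptors, which call on the p160 proteins, had 20 of 33 genes tested, of which 10 were positive (median 0.03). The estrogen-related receptors *ESRRG* and *ESRRB* were the most abundant of them, at 46.3 and 30.7 FPKM in *CARM1* KD embryos, against 71.0 and 21.6 FPKM in control embryos. *ESRRG* was at 156 FPKM in control 2, against 37.4 and 19.6 FPKM in control 1 and 3. *ESRRB* was at 0.0875 FPKM in control 2, against 17.8 and 47.0 FPKM in control 1 and 3.

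Corepressors, which oppose the p160 proteins at nuclear receptors, had 1 of 7 genes on the positive side (median -0.15). *SIN3A* averaged 52.3 FPKM in *CARM1* KD embryos and 74.1 FPKM in control embryos. It ranged from 5.49 to 121 FPKM in *CARM1* KD embryos and from 6.60 to 145 FPKM in control embryos. *GPS2*, the exception, averaged 29.1 FPKM in *CARM1* KD embryos and 15.1 FPKM in control embryos. *GPS2* was at 46.8 FPKM in *CARM1* KD 3, against 17.2 and 23.3 FPKM in *CARM1* KD 1 and 2. Erasers and readers of acetyl-lysine had 4 of 6 genes positive (median 0.37). The deacetylase *HDAC2* averaged 39.6 FPKM in *CARM1* KD embryos and 19.1 FPKM in control embryos. It was at 0.970 FPKM in control 2, against 34.8 and 21.6 FPKM in control 1 and 3. No gene of these lists passed either threshold in this fit. At an unadjusted p under 0.05, DESeq2 called 1 of them, *MED16* (adjusted p = 0.99891), and edgeR without a filter on low values called 1, *PPARGC1A* (adjusted p = 0.99997), both named after their values were seen.

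The groups did not overlap for 5 of the 107 partner genes (4.67%), close to the 4.89% of all tested genes. These genes were picked out after their values were seen. The Mediator subunit *MED16* was at 5.22, 2.36 and 1.46 FPKM in *CARM1* KD embryos, against 5.55, 22.5 and 5.60 FPKM in control embryos, and *MED22* at 1.25, 0.867 and 1.40 FPKM in *CARM1* KD embryos, against 5.27, 1.46 and 1.49 FPKM in control embryos. *PAF1*, a subunit of an elongation complex that binds methylated H3 tails, was at 16.9, 11.0 and 13.3 FPKM in *CARM1* KD embryos, against 6.54, 10.3 and 7.14 FPKM in control embryos. The orphan receptor *NR2F2* was at 1.40, 2.01 and 1.72 FPKM in *CARM1* KD embryos, against 1.10, 0.485 and 0.293 FPKM in control embryos. *RUNX1*, a transcription factor that CARM1 methylates, was at 1.67, 1.34 and 0.714 FPKM in *CARM1* KD embryos, against 0.6001, 0.463 and 0.491 FPKM in control embryos. Their fitted differences did not pass the test (edgeR, adjusted p = 0.99989 for each).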

How the data were processed

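Single-embryo RNA-seq was analysed for 3 *CARM1* KD and 3 control embryos, grouped by the sample labels, with 0 per-sample columns lacking a sample. For 24358 genes and 47421 transcripts, both FPKM and estimated counts were deposited by the authors. The methods name HiSeq sequencing, the pig genome and Cufflinks, whereas fastp, HISAT2, StringTie, edgeR and the human build GRCh38.p10 stand in the submitters' processing notes. The sources used here do not say which of them made the deposited counts. All 8 members overlapped the same-named RefSeq gene of Sscrofa11.1, so coordinates are given on that build. An FPKM of 0.0001, written where the count was 0, was taken as 0. The deposited annotation columns (gene names, coordinates, transcript lengths, exons) were used as given, and an Ensembl name table gave symbols to 951 of 6907 genes listed by identifier.

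Estimated counts were rounded to whole numbers and tested with edgeR 4.0.16 (R 4.3.3; quasi-likelihood, TMM, Benjamini-Hochberg) over 10639 genes with FPKM of at least 1 in at least 2 libraries, with 4 residual degrees of freedom. Standard errors were obtained by dividing the fitted log2 difference by the root of the F statistic. The fit was tested on simulated counts. Libraries held 26341924 to 41727594 counts. Correlations used exact permutation tests (2-sided). The alternatives were limma 3.58.1 on log2(FPKM + 1) and log2(FPKM + 0.1), DESeq2 1.42.0, other scalings and filters, mitochondrial genes left out, a replicate block, an oocyte transcript term, each embryo left out, and *CARM1* KD 1 and 2 against control 1 and 3. Figures were drawn with matplotlib 3.10.9 in Python 3.11.15.

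The genes named were the members, *CARM1*, the 2 most abundant tested genes by mean FPKM in each partner list, any further list gene at an unadjusted p under 0.05 (0 were found), and the 2 genes most like each member. One gene that this rule named is not reported here. Further genes are said to have been chosen after their values were seen. The members and lists were chosen with earlier results of these data known. The labels do not say whether same-numbered embryos shared anything beyond the number.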

Additional observations from a re-analysis of the deposited data

How the results depend on the processing

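With 3 embryos a group, the width of the intervals limits what can be said of any member, and single outlying embryos were not screened for. The count of members past the threshold was 0 under all 17 alternatives, also at an unadjusted p. Of all tested genes, 0 passed the adjusted threshold under every alternative except DESeq2. Between 16 and 243 genes had an unadjusted p under 0.05, so the 0 says little about the members. DESeq2 called 12 genes in all, against 0 in edgeR, with no member among them; the cause was not tested. For the members, *EP300*, *NCOA2* and *TDRD3* kept a positive difference under all 17 alternatives, and *CARM1* a negative one.

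Log2 fold changes changed sign as follows, none of them past the threshold, and the cause was not tested. With limma on log2(FPKM + 1), *ELAVL1* was 0.027, *MED10* 0.15 and *SF3B4* 0.62, and on log2(FPKM + 0.1) they were 0.025, 0.15 and 0.66. Upper-quartile scaling gave -0.052 for *NCOA1* and -0.063 for *MED4*, and moved the median of all genes to -0.02, against 0.10 with TMM. The oocyte transcript term gave 0.049 for *NCOA3*, 0.011 for *ELAVL1*, 0.11 for *PHF20*, 0.10 for *ESRRG* and 0.36 for *SIN3A*. *CARM1* KD 1 and 2 against control 1 and 3 gave -0.27 for *NCOA1*, 0.21 for *ELAVL1*, -0.18 for *ACTL6A* and -0.28 for *HNRNPD*.

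Deviations of same-numbered embryos correlated at 0.18, -0.47 and -0.50, against -0.35 to 0.54 for embryos of unlike number. With 3 embryos a group that differ in composition, these values cannot show whether same-numbered embryos shared a day or a batch. Under the replicate block, *MED10* was 0.089 and *SF3B4* 0.47, with 0 genes past the adjusted threshold and 16 at an unadjusted p under 0.05, against 73 without it.

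Leaving out 1 embryo at a time gave ranges that crossed 0 for these genes: *NCOA1* -0.60 to 0.43, *NCOA3* -1.45 to 0.10, *CREBBP* -0.013 to 1.39, *MED12* -1.25 to 0.13, *ELAVL1* -0.44 to 0.13, *ACTL6A* -0.49 to 1.45, *CCNC* -0.53 to 0.71, *CDK8* -0.38 to 0.99, *MED10* -0.74 to 0.45, *MED4* -0.19 to 0.26, *PHF20* -1.54 to 0.34, *HNRNPD* -0.058 to 0.83, *SNRPC* -0.13 to 1.21, *SF3B4* -0.59 to 0.92, *ESRRG* -1.68 to 0.51, *ESRRB* -0.42 to 1.86 and *SIN3A* -2.29 to 0.22. For the members whose sign held, the ranges were 0.36 to 2.26 for *TDRD3*, 0.12 to 1.20 for *NCOA2* and 0.72 to 1.44 for *EP300*. Leaving out control 2 alone reversed the sign of *NCOA3*, *ELAVL1*, *ACTL6A*, *CCNC*, *MED4*, *PHF20*, *HNRNPD*, *SNRPC*, *ESRRG*, *ESRRB* and *SIN3A*.

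At an unadjusted p under 0.05, edgeR called 243 genes without a filter, 37 with FPKM of at least 1 in 3 libraries 39 to 106 with 1 embryo left out and 175 for *CARM1* KD 1 and 2 against control 1 and 3, DESeq2 193 and limma 106 or 87. The comparison of spreads and the leave-one-out values of the *NCOA3* correlation were chosen after seeing the data.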
